A study of Mus musculus with 6 samples.

Results

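Respiratory complex I genes were followed in liver RNA from male ICR mice, an outbred stock, as every gene whose symbol begins with Nduf. The symbols came from the RefSeq accession of each array probe. The table of symbols holds 54 such genes, and 46 of them had at least 1 named probe; all 46 were measured, among 14805 genes tested in all. By role they were 36 subunits of the complex, 8 assembly factors (Ndufaf1 to Ndufaf8) and the pair Ndufa4 and Ndufa4l2, which carry the name but are not counted as subunits here. The other 8 symbols, Ndufb1, Ndufb4b, Ndufb4c and 5 annotated as pseudogenes, were not analysed here. The DECB group had been given deproteinized extract of calf blood into the stomach at a daily 0.08 mL for each 20 g of weight for 35 days, and the control group had been given saline at that volume and schedule. The labels give 12 mice in each group, weighing 18 to 22 g, and 3 arrays of each group were analysed, named DECB 4, 5 and 6 and control 1, 2 and 3. The sample descriptions give 30 days for DECB and 1 day for control, which conflicts with the 35 days stated elsewhere in the labels. The mice were also shut in containers to time how long they withstood hypoxia, and the labels do not say whether that preceded the collection of the livers.

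Complex I is the entry point of the mitochondrial respiratory chain for electrons from NADH. A peripheral arm that juts into the matrix carries the flavin and a chain of iron-sulfur clusters and passes electrons to ubiquinone. A membrane arm pumps protons, and its core subunits are encoded by mitochondrial DNA, while accessory subunits surround both arms. Assembly factors bind intermediates while the complex is built and leave before it is complete. Liver is rich in mitochondria, and the transcripts of the complex are abundant in hepatocytes.

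Each array was 1 Agilent array read in the Cy3 channel, and a level here is the log2 of its processed signal minus that array's 75th percentile. Arrays that share a scan time are called a slide: slide 1 held DECB 6 and control 1, slide 2 held DECB 4 with controls 2 and 3, and slide 3 held DECB 5. Slide 1 was dim, with a 75th percentile of 78.8 to 84.8 against 422 to 551 intensity units on the other arrays. All 52 probes kept for the 46 genes were nevertheless well above background on all 6 arrays. All 6 hepatocyte markers, albumin (Alb) among them, were measured, so the labelled tissue was not contradicted. Because the labels do not link the arrays to different animals, the p-values cover just the variation among these 6 samples, some of which may be technical. In whole liver, fewer cells of a type and less RNA per cell cannot be told apart.

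Subunit transcripts were mostly lower and assembly factor transcripts mostly higher in DECB livers than in control livers. By the brightest kept probe, which stands for its gene, no single gene's replicates could separate its difference from 0. Of the 36 subunits, 33 had a difference (DECB minus control) below 0 and 3 above 0, with a median of -0.26 on the log2 scale. All 8 assembly factors had a difference above 0, with a median of 0.23. Over all genes tested the median was -0.03, with 52.5% of differences below 0 and 47.5% above 0. No complex I gene passed limma's adjusted p of 0.05 in either direction (0 of 46), where 0.209% of all genes tested were called higher and 0.257% lower. Read by the probe that stands for each gene, none reached an unadjusted p of 0.05 either, against 10% of all genes tested. A dimmer probe of Ndufv3 did, at an unadjusted limma p of 0.0174. Among the probes that stand for a gene, the lowest unadjusted p was 0.0981. The 95% confidence interval of the difference by these probes included 0 for all 46. The set ran from Ndufa13, at 0.664-fold (DECB over control), to Ndufaf8, at 1.51-fold. Members share the arrays they were measured on and are not replicates of a condition, so these counts and medians are descriptions with no test.

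**Figure D1:**
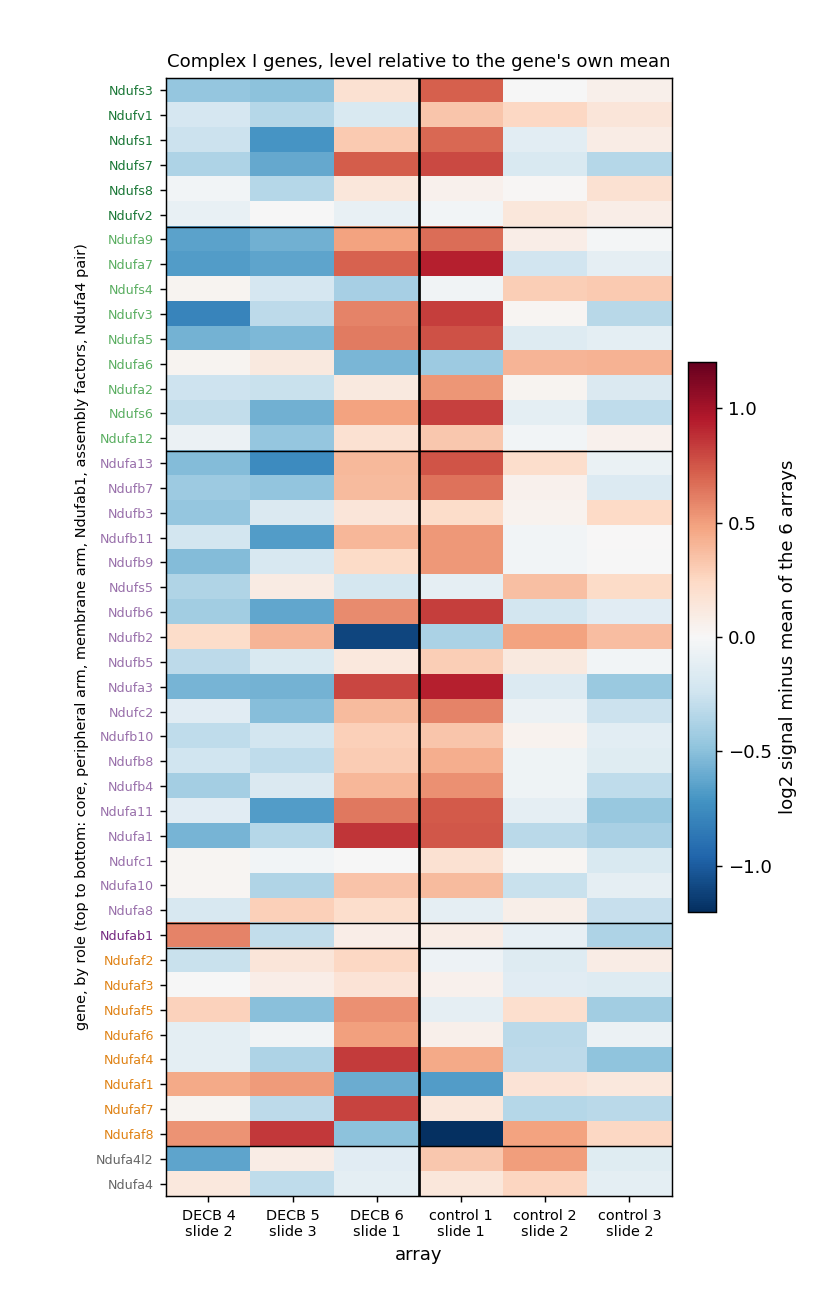
Level of 45 complex I genes on each array, as log2 signal minus the gene's mean over the 6 arrays (colour), with DECB arrays left of the black line and control arrays right of it and rows grouped by role. Most subunit rows are blue on DECB 4 and DECB 5 and red on DECB 6 and control 1, the 2 arrays of slide 1.

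Promoter sequence is shown for 4 members, all of which hold a match to the motifs given below. The promoters of Ndufa13 and Ndufaf7, with differences of -0.59 and 0.35, hold no match and are not shown. Of the 4 shown, Ndufs3 and Ndufa9 are subunits among the 6 lowest differences, and Ndufaf8 and Ndufaf4 are assembly factors with differences above 0. Each is the RefSeq window (GRCm38.p6) of 300 bases, 250 before the gene's start and 50 after it, 5′ to 3′ on the gene's strand. Capitals mark matches to any of 4 motifs, searched on both strands: GCATGCGC, the core of the site for NRF-1, CCGGAAG, an ETS site that GABP can use, AAGATGG, of YY1, and AAGGTCA, a site for the ERR receptors. These factors are known as regulators of nuclear genes for mitochondrial proteins. The windows are chr2:90904672-90904971 (minus strand), chr6:126849095-126849394 (minus strand), chr11:120098684-120098983 (plus strand) and chr4:24897833-24898132 (plus strand).
Ndufs3: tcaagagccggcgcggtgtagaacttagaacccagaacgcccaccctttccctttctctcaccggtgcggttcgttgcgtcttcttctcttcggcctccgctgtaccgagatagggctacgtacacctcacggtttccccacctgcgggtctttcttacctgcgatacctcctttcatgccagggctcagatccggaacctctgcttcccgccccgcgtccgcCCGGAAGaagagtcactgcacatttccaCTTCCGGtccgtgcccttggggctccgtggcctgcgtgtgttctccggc
Ndufa9: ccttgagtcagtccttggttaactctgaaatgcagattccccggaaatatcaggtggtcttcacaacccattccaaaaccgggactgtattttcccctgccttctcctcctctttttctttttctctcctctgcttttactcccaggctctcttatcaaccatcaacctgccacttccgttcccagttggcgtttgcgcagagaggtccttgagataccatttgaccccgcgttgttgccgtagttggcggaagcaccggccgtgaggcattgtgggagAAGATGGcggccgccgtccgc
Ndufaf8: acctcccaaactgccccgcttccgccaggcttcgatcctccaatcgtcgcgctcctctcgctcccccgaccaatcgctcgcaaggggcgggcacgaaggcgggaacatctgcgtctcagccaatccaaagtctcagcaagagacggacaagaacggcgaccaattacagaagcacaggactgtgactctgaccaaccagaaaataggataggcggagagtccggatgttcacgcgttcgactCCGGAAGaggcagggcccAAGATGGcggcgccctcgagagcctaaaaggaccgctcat
Ndufaf4: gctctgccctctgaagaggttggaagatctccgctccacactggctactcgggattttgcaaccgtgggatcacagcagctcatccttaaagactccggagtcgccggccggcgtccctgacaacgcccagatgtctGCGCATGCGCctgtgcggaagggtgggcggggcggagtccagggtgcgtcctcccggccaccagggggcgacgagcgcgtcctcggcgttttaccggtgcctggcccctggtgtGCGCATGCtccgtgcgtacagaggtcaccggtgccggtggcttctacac

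The Ndufs3 window holds the ETS letters at -27 on the gene strand and at 2 on the other strand, counting the gene's start as 1. In the Ndufa9 window AAGATGG begins at 30, and in the Ndufaf8 window CCGGAAG begins at -8 and AAGATGG at 11. The Ndufaf4 window holds the NRF-1 letters at -113 and 2 on the other strand and at -111 on the gene strand. The matches at -113 and -111 overlap, because the end of the motif's reverse complement is also its beginning. Of the 46 genes 40 had a window in the promoter table. AAGATGG was found in 8 of the 40 (20%), against 8.04% of the 11764 genes tested that have a window. GCATGCGC was found in 5 (12.5%, against 5%), AAGGTCA in 3 (7.5%, against 4.73%) and CCGGAAG in 6 (15%, against 16.6%). At least 1 of the 4 motifs was found in 21 of the 40 (52.5%), against 30.4% of the genes tested. The match to AAGATGG lay after the gene's start and on the gene strand in 8 of 8 members, between 11 and 39, and in 31.9% of the 946 genes tested that hold the letters anywhere. Those letters include ATG, and whether a match covers the start codon was not examined. At least 1 motif was found in 17 of 32 subunit windows and 4 of 7 assembly factor windows. By motif, the share of subunit and assembly factor windows was 9.38% and 28.6% for GCATGCGC, 12.5% and 28.6% for CCGGAAG, 21.9% and 14.3% for AAGATGG, and 9.38% and 0% for AAGGTCA; with 7 windows of assembly factors these shares rest on 0 to 2 genes. Their median GC content was 59.2% and 60.7%, against 59% for the genes tested. Ndufv1 had the lowest unadjusted p of the 46 genes, read by the probe that stands for each. Its window holds none of the 4 motifs, which says only that these letters are not in it.

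The 7 nuclear-encoded catalytic core subunits, which hold the flavin and the iron-sulfur clusters, all had differences below 0, from -0.51 to -0.12, with a median of -0.23. Ndufv1, which binds NADH and the flavin, had levels of 5.34, 5.19 and 5.35 in DECB 4, 5 and 6, against 5.87, 5.79 and 5.68 in controls 1, 2 and 3. Every DECB array lay below every control array, and the means were 5.30 ± 0.09 in DECB and 5.78 ± 0.10 in control (SD, n = 3 each). The difference was -0.48 (SE 0.25, limma adjusted p = 0.626), or 0.715-fold. An exact permutation test of 3 against 3 arrays cannot go below p = 0.1. Read by the probe that stands for each gene, Ndufv1 was the only one of the 46 members whose groups did not overlap with DECB lower, against 9.4% of all genes, and none separated with DECB higher, against 7.24% of all genes.

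Ndufs3, which belongs to the part of the peripheral arm that is built first, had levels of 5.22, 5.20 and 5.87 in DECB 4, 5 and 6, against 6.41, 5.68 and 5.75 in controls 1, 2 and 3. DECB 6 lay above controls 2 and 3, so the groups overlapped. The difference was -0.51 (SE 0.35, limma adjusted p = 0.764). Ndufs1, the largest core subunit, with several iron-sulfur clusters, was at 3.07, 2.61 and 3.64 in the DECB arrays, against 4.01, 3.19 and 3.41 in the control arrays. Its groups overlapped through DECB 6, and its difference was -0.43 (SE 0.38). Both genes kept a lower DECB value within each slide, at -0.54 and -0.49 for Ndufs3 and -0.37 and -0.23 for Ndufs1 on slides 1 and 2.

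Ndufs7 helps to line the pocket where ubiquinone binds. It was at 4.92, 4.68 and 6.02 in DECB 4, 5 and 6, against 6.08, 5.11 and 4.95 in controls 1, 2 and 3, a difference of -0.17 (SE 0.48). In Ndufs7 the arrays parted by slide rather than by treatment: DECB 6 and control 1 stood about a log2 unit above the other 4 arrays, a slide offset of 1.14. The cluster-bearing subunits Ndufs8 and Ndufv2 differed by -0.16 (SE 0.27) and -0.12 (SE 0.25). Ndufs8 was at 1.35, 1.05 and 1.53 in DECB against 1.44, 1.40 and 1.57 in control, and Ndufv2 at 3.81, 3.89 and 3.81 in DECB against 3.86, 4.03 and 3.97 in control. In both genes the groups overlapped, and DECB 5 was the lowest array of Ndufs8.

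The 9 accessory subunits of the peripheral arm also all had differences below 0, from -0.49 to -0.23, with a median of -0.32. Ndufa9, which holds a bound NADPH beside the ubiquinone site, was lowest, at 3.20, 3.27 and 4.32 in DECB 4, 5 and 6, against 4.51, 3.92 and 3.82 in controls 1, 2 and 3. DECB 4 and 5 lay below all controls and DECB 6 did not. The difference was -0.49 (SE 0.40, limma adjusted p = 0.844). Ndufs4, whose loss in mice causes a disease resembling Leigh syndrome, differed by -0.38 (SE 0.28), and Ndufa7 by -0.40 (SE 0.50). All 9 were lower in DECB within slide 1 and again within slide 2.

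Ndufv3, a small subunit beside the flavin site, was read by a pair of probes that were both lower in DECB. Its brighter probe, which stands for the gene, differed by -0.34 (SE 0.47). The dimmer probe was at -1.35, -0.90 and -1.0 in DECB 4, 5 and 6, against -0.26, -0.10 and -0.37 in controls 1, 2 and 3, with no overlap. Its difference was -0.84 (SE 0.27, limma unadjusted p = 0.0174, adjusted p = 0.326 over all probes, 0.0582 with slide as a block). The second probe of Ndufb6, a membrane-arm subunit, also separated the groups, at 4.38, 4.36 and 4.34 in DECB 4, 5 and 6, against 4.49, 4.62 and 4.61 in controls 1, 2 and 3, a difference of -0.21 (SE 0.25). Both probes were singled out after their values were seen. Ndufv3 is known to be made in a short and a long form by alternative splicing, and which form each probe reads was not examined. In the 6 members with more than 1 kept probe, all probes of a gene had differences of one sign.

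Of the 19 accessory subunits of the membrane arm, 17 had differences below 0 and 2 above 0, with a median of -0.22. Ndufa13, also known as Grim19 for a role in cell death, had the lowest difference of all 46 members. Its levels were 5.94, 5.70 and 6.84 in DECB 4, 5 and 6, against 7.21, 6.66 and 6.38 in controls 1, 2 and 3, so that DECB 6 overlapped the controls. The difference was -0.59 (SE 0.40, limma adjusted p = 0.771). The others ran from -0.36 in Ndufb7 to 0.20 in Ndufa8, and 3 of them, Ndufa1, Ndufc1 and Ndufa10, lay within 0.03 of 0 at -0.02, -0.01 and 0.0026. Ndufab1, the mitochondrial acyl carrier protein, is present in both arms and also serves fatty acid synthesis. It was at 0.46, -0.42 and -0.05 in DECB against -0.04, -0.22 and -0.50 in control, a difference of 0.25 (SE 0.33) that rests on DECB 4.

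**Figure D2:**
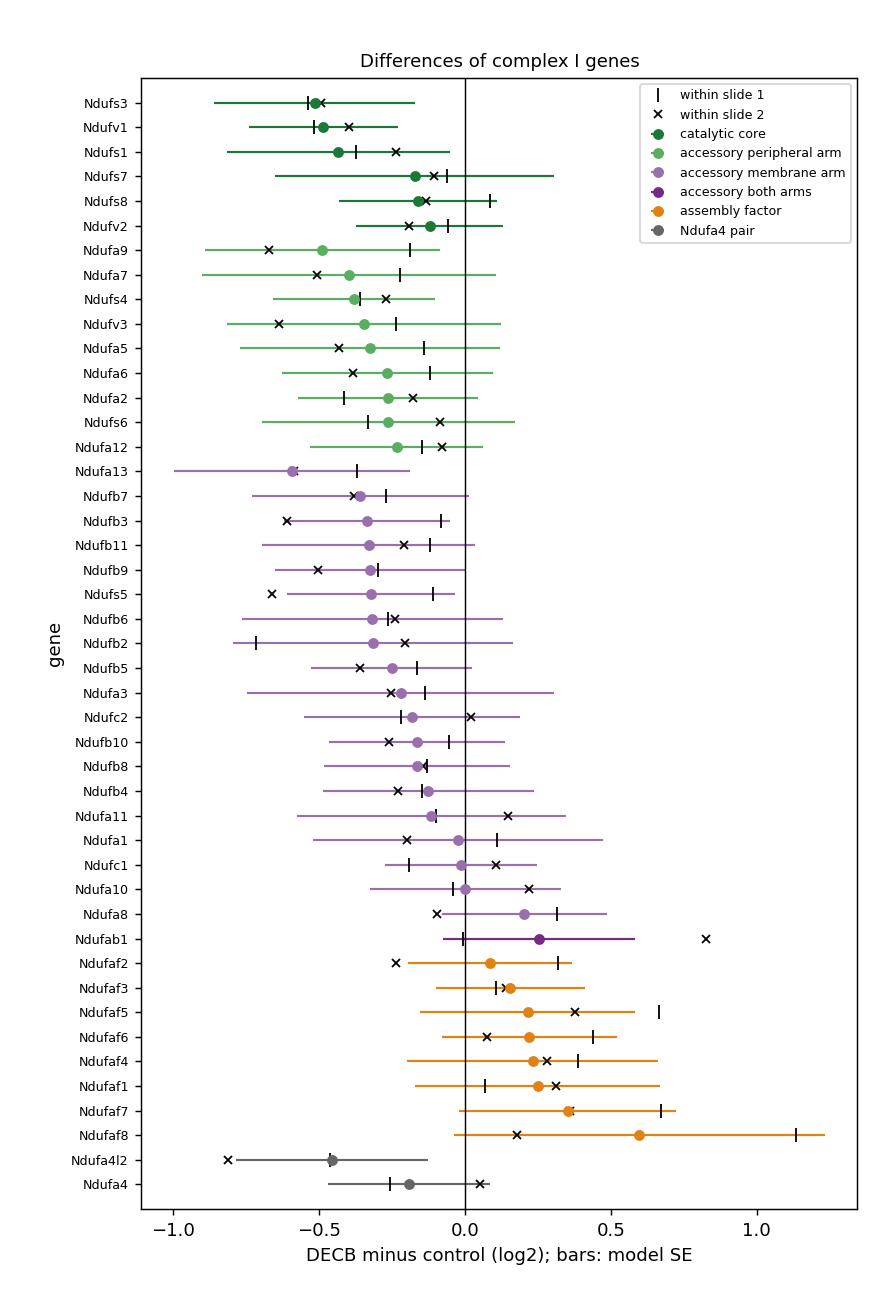
DECB minus control of 45 complex I genes on the log2 scale (points, coloured by role, with the model's SE as bars), with the value within slide 1 as a vertical tick and within slide 2 as a cross. Nearly all subunit points lie left of 0 and all 8 assembly factor points right of it, and most SE bars are as long as the difference they belong to.

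The 8 assembly factors had differences from 0.09 to 0.60, with SEs of 0.26 to 0.64 and limma adjusted p-values of 0.915 to 1.00. Their roles are known mainly from human cells. Ndufaf8, the partner that stabilises Ndufaf5, was highest, at 0.43, 0.73 and -0.60 in DECB 4, 5 and 6, against -1.74, 0.37 and 0.13 in controls 1, 2 and 3. Both arrays of slide 1 were low, control 1 the lower of them, and the groups overlapped. The difference was 0.60 (SE 0.64). Ndufaf5, an enzyme that hydroxylates an arginine of Ndufs7, was at -1.32, -2.09 and -1.03 in DECB against -1.70, -1.39 and -2.0 in control, a difference of 0.22 (SE 0.37). Its target Ndufs7 differed by -0.17.

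Ndufaf7, a methyltransferase of mitochondria, was at -0.43, -0.77 and 0.35 in DECB 4, 5 and 6, against -0.32, -0.80 and -0.78 in controls 1, 2 and 3. DECB 6 stood above all other arrays and DECB 5 among the controls. The difference was 0.35 (SE 0.37). Ndufaf3 and Ndufaf4 act together on the part that holds the ubiquinone site. Ndufaf3 was at -1.49, -1.41 and -1.33 in DECB against -1.43, -1.63 and -1.64 in control, a difference of 0.16 (SE 0.26). Ndufaf4 was at 1.22, 0.97 and 2.18 in DECB against 1.79, 1.02 and 0.85 in control, a difference of 0.23 (SE 0.43). Both pairs of groups overlapped, and in Ndufaf4 the 2 arrays of slide 1 were the highest.

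Ndufaf1, part of the complex that assembles the membrane arm, was at 1.97, 2.02 and 0.91 in DECB against 0.84, 1.67 and 1.64 in control, a difference of 0.25 (SE 0.42). Here both slide 1 arrays were low instead of high, and on slides 2 and 3 each DECB array exceeded both controls. Ndufaf6, needed early in assembly, was at 1.11, 1.18 and 1.72 in DECB against 1.29, 0.90 and 1.16 in control, a difference of 0.22 (SE 0.30). Ndufaf2, a relative of the subunit Ndufa12 that acts late, was at 0.81, 1.23 and 1.33 in DECB against 1.01, 0.93 and 1.17 in control, a difference of 0.09 (SE 0.28). Ndufaf2 had the smallest difference of the 8 and was the only one with opposite signs within the slides, 0.32 on slide 1 and -0.24 on slide 2.

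**Figure D3:**
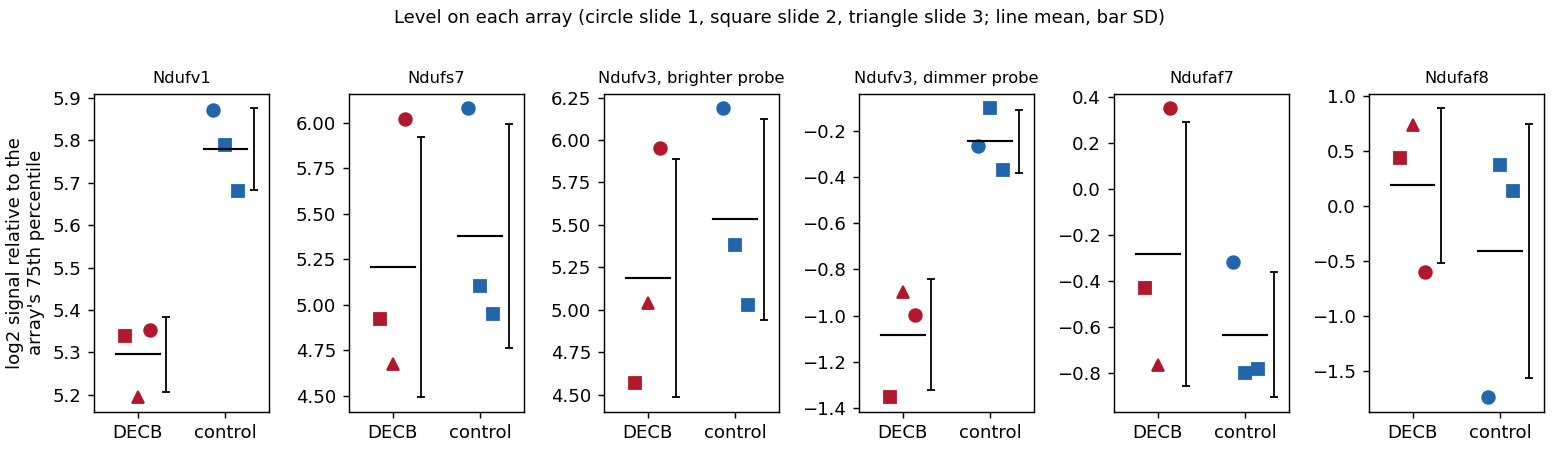
Level on each array (log2 relative to the array's 75th percentile) of 4 genes read by 1 probe each, Ndufv1, Ndufs7, Ndufaf7 and Ndufaf8, and of both Ndufv3 probes, DECB left and control right, with marker shape giving the slide, a line for the mean and a bar for the SD (n = 3). Ndufv1 and the dimmer Ndufv3 probe separate the groups, while in Ndufs7 the slide 1 circles sit above the rest in both groups.

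Ndufa4 is now assigned to cytochrome c oxidase, the last complex of the chain, and Ndufa4l2 is its relative, known as a target of the hypoxia factor HIF-1. Ndufa4 was at 6.21, 5.78 and 5.96 in DECB 4, 5 and 6, against 6.22, 6.34 and 5.97 in controls 1, 2 and 3, a difference of -0.19 (SE 0.28). Ndufa4l2 was at -2.62, -1.90 and -2.13 in DECB against -1.67, -1.49 and -2.14 in control, a difference of -0.45 (SE 0.33, limma adjusted p = 0.796). Neither passed the test, and in both the groups overlapped.

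For most complex I genes the arrays differed more by slide than by treatment. Mean levels on slide 1 exceeded those on the other arrays for 31 of 36 subunits, with a median offset of 0.56 and a range from -1.11 in Ndufb2 to 1.30 in Ndufa3. That offset was larger than the DECB difference for 27 of the 36 subunits and for 8 of 8 assembly factors. The same share over all genes was not counted. The offset was not particular to these genes. All genes of the brightest of the 5 groups described below had a median offset of 0.64, and that group holds 31 of the subunits. In groups 2, 3 and 4 the median offset of all genes was -0.09, 0.26 and 0.48, against 0.25 for the assembly factors, which lie there. Array by array, the median of the subunits, each set against its own mean over the arrays, was -0.28, -0.34 and 0.29 in DECB 4, 5 and 6, against 0.52, -0.02 and -0.11 in controls 1, 2 and 3. For the assembly factors it was 0.01, 0.02 and 0.37 in the DECB arrays, against -0.01, -0.15 and -0.11 in the control arrays. The subunit medians of the 2 groups overlapped through DECB 6, and within a slide the DECB array was the lower one. Subtracting the assembly factor median from the subunit median on the same array gave -0.29, -0.36 and -0.08 in DECB against 0.52, 0.13 and -0.00086 in control, with the highest DECB array below the lowest control array. DECB 6 and control 3, the arrays of the 2 groups nearest each other, were apart by less than the replicate SD of 0.22 within groups. The subunits were mostly brighter than the assembly factors, as given below, and the part of brightness was not tested. The order of the arrays is a description with no test.

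**Figure D4:**
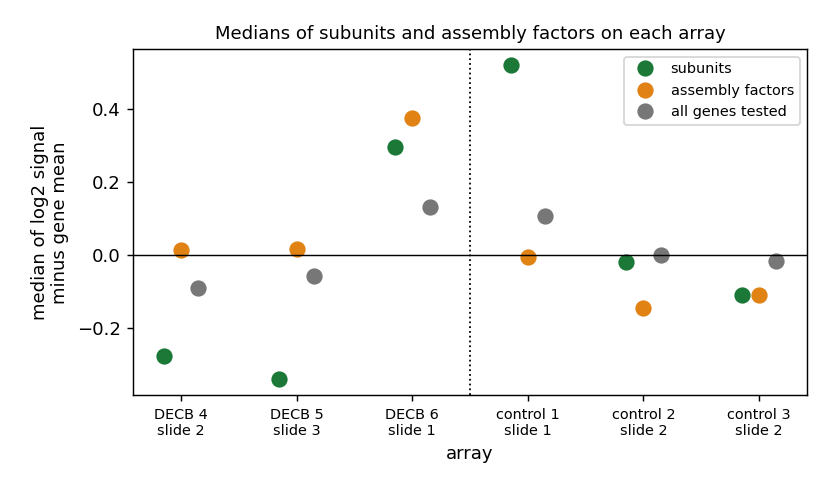
Median over the 36 subunits, the 8 assembly factors and all genes tested of the log2 signal minus each gene's mean over the arrays, for each array, with DECB left and control right of the dotted line. Subunits lie below assembly factors on all 3 DECB arrays and above or level with them on the 3 control arrays.

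Within slide 1 the subunit median was -0.16, with 33 of 36 lower in DECB 6 than in control 1, and the assembly factor median was 0.41, with 8 of 8 higher. Within slide 2 the subunit median was -0.23, with 31 of 36 lower in DECB 4 than in the mean of controls 2 and 3, and the assembly factor median was 0.23, with 7 of 8 higher. A difference below 0 on both slides was found for 28 of 36 subunits (77.8%), against 36.6% of all genes, and for 0 of 8 assembly factors. A difference above 0 on both was found for 7 of 8 assembly factors and 0 of 36 subunits, against 28.6% of all genes. The arrays behind these counts are also in the main comparison, so they are no separate check of it. With slide as a block in limma, the median was -0.23 for subunits and 0.28 for assembly factors. That fit called 0 of 46 members, against 6.65% of all genes; 5 of 46 members reached an unadjusted p of 0.05 there, against 28.8% of all genes. The lowest adjusted p among the members was 0.112, for Ndufs3. DECB 5, alone on its slide, adds nothing to that contrast, and 2 residual degrees of freedom remain.

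A single array weighed heavily on each median. Without control 1 the subunit median was -0.09, with 23 of 36 below 0, and without DECB 6 it was -0.44. It was -0.17 without DECB 4 and -0.13 without DECB 5, and with quantile normalization in place of the percentile it was -0.13, with 28 of 36 below 0. The assembly factor median was 0.03 without DECB 6, with 5 of 8 factors above 0, and the highest, 0.31, without DECB 5.

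Brightness moved with the result as well. The genes tested were split by mean signal into 5 groups of equal size. Of the 36 subunits 31 were in the brightest group, and in that group the median difference of all genes was -0.15, with 64.6% below 0. The 31 subunits there had a median of -0.31, with 30 below 0. Of those 31, 27 were lower in DECB on both slides, against 48.6% of all genes of the group. The assembly factors lay in groups 2, 3 and 4, counted from the dimmest, where all genes had medians of 0.05, 0.0024 and -0.04, and 8 of 8 were above 0. The part of brightness in the subunits' differences was not tested.

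**Figure D5:**
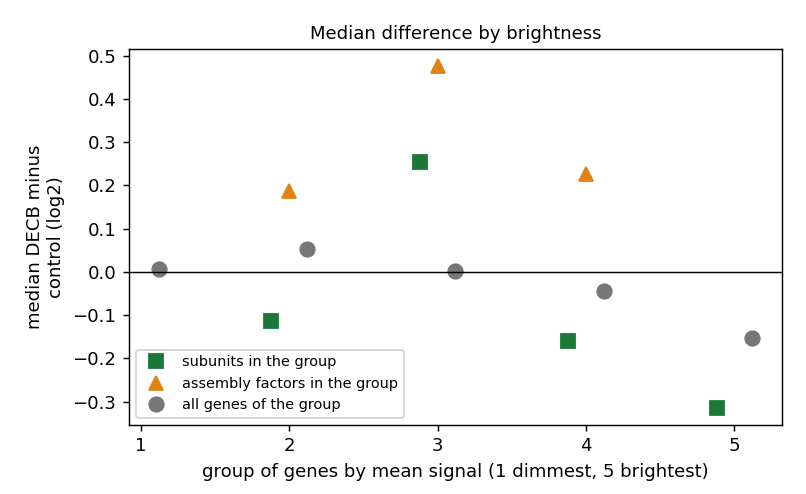
Median DECB minus control (log2) in 5 equal groups of genes by mean signal (1 dimmest), for the subunits and the assembly factors that fall in each group and for all its genes. Subunits lie at -0.31 and all genes at -0.15 in the brightest group, and assembly factors lie above all genes in the 3 groups that hold them.

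Complex I is assembled with the help of genes that do not carry the Nduf name. Of 12 measured, 5 had a difference above 0 and 7 below 0, with a median of -0.15, unlike the 8 of 8 above 0 among Ndufaf1 to Ndufaf8. None was called and 1 reached an unadjusted p of 0.05, against 10% of all genes: Nubpl, which delivers iron-sulfur clusters to the complex. Nubpl was at -0.08, -0.92 and -0.36 in DECB 4, 5 and 6, against 0.60, 0.07 and 0.34 in controls 1, 2 and 3, a difference of -0.79 (SE 0.33, limma adjusted p = 0.492). Acad9, which works beside Ndufaf1, differed by -0.64 (SE 0.31) and Timmdc1, a membrane-arm factor, by 0.65 (SE 0.35). The groups did not overlap in 5 of the 12, with DECB lower in Acad9, Nubpl, Tmem126b and Tmem186 and higher in Dmac1, against the 9.4% and 7.24% of all genes given above.

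Electrons also reach ubiquinone by other routes, and 10 of the 11 genes of these routes that were measured had differences below 0, against 52.5% of all genes. Their median was -0.54. Some of them encode subunits of the same enzyme, such as succinate dehydrogenase, so the count is of genes and not of enzymes. In the brightest group of genes the median was -0.15, with 64.6% below 0. The part of brightness in the differences of these 11 genes was not tested. None of the 11 was called in the main comparison, and 2 reached an unadjusted p of 0.05, against 10% of all genes. Prodh, which oxidises proline, was at 3.99, 3.61 and 4.16 in DECB 4, 5 and 6, against 5.23, 4.97 and 4.85 in controls 1, 2 and 3. All DECB arrays lay below all controls, and the difference was -1.10 (SE 0.29, limma adjusted p = 0.205, 0.0392 with slide as a block). The fit with slide as a block called 6.65% of all genes. Etfdh, which takes electrons from fat oxidation, differed by -1.05 (SE 0.33, limma adjusted p = 0.316). The exception above 0 was Dhodh, of pyrimidine synthesis, at 0.64 (SE 0.45). The groups did not overlap in 4 of the 11, Prodh, Etfdh, Sdhb and Sdha. DECB was the lower group in each, against 9.4% of all genes. The complex I genes of mitochondrial DNA, ND1 to ND6, were not analysed here.

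Markers of hepatocytes and of other cell types of the liver were set beside these results, and none of them was called in the main comparison. All 6 hepatocyte markers had differences below 0, with a median of -0.20. Within slides that direction did not hold for all of them: 3 of 6 were below 0 on both slides, and Tat and Serpina1a were above 0 on both. Their summed linear level was 1333 to 1620 in DECB arrays and 1548 to 1775 in control arrays, in multiples of the array's 75th percentile. The summed level of the 3 erythroid markers was 15.7 to 41.1 in DECB and 64.4 to 97.7 in control, with no overlap; the globin genes Hba-a1 and Hbb-bt differed by -1.73 and -2.29 (limma adjusted p = 0.191 and 0.139) and Alas2 by 0.88. Kupffer cell markers summed to 11.5 to 16.5 in DECB and 10.3 to 14.7 in control, with 2 of 4 higher. Endothelial markers summed to 8.52 to 16.2 in DECB and 12.2 to 23 in control, with 3 of 4 lower. The endothelial marker Stab2 differed by -1.0 (limma adjusted p = 0.530). With slide as a block Stab2 was called (limma adjusted p = 0.0465), as were 6.65% of all genes, and no other marker listed here was. Stellate cell markers summed to 11.7 to 27.7 in DECB and 19.1 to 42.2 in control, with 2 of 3 measured lower. Lymphocyte markers summed to 3.55 to 6.75 in DECB and 4.53 to 5.40 in control, with 2 of 3 measured higher. The 2 cholangiocyte markers measured were both higher and summed to 0.282 to 0.350 in DECB and 0.143 to 0.314 in control, and Krt7 and Epcam did not pass the filter on dim probes. The list medians were nearest 0 for Kupffer cell markers, at -0.04, and lymphocyte markers, at 0.07. The part of cell makeup in the complex I differences was not tested.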

How the data were processed

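Liver RNA was hybridised to 6 Agilent 1-colour arrays. Per the file headers, the authors extracted the scans with Agilent Feature Extraction 11.0.1.1, and the processed signal they deposited is an intensity, background-subtracted and spatially detrended, with no normalization between arrays. The value table deposited by the authors is on a log2 scale. With each probe centred over the arrays, its columns had a correlation near 0 with their own arrays. The highest correlation with any array was 0.15, and no column's best match was its own array. The value table was therefore used in no comparison, and its centring and direction stay unknown. The assignment of scanner files to samples could not be checked against it. For the main setting, each array's 75th percentile over non-control spots was subtracted from the log2 signal, without control spots and outlier marks (164 to 322 spots an array). Probes well above background on at least 3 arrays were kept, and the brightest kept probe stood for its gene. Of 39429 non-control probes, 28684 had a RefSeq accession and 27234 were named by it, and 12195 probes stayed unnamed. Cross-hybridisation of probes to copies such as Ndufb4b was not tested. limma 3.58.1 in R 4.3.3 (lmFit, eBayes, two-sided) was fitted to all genes with Benjamini-Hochberg adjustment and checked on simulated data. The simulated differences were larger than that of any member and no slide effect was simulated, so the check does not cover the members' case. The number of arrays limits precision. Genes given in full were the 6 largest differences each way, the core subunits, all assembly factors, Ndufa4, Ndufa4l2 and any member called or without overlap. A gene that this rule takes is counted but not reported here. Promoter windows were searched with Python 3.11.15. The members, lists and tests were chosen with earlier results of these data known.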

Additional observations from a re-analysis of the deposited data

How the results depend on the processing

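No complex I gene was called under any alternative, among them normexp background correction, quantile normalization, another scaling, no filter or a strict filter, slide as a fixed or random block, leaving out slide 1 or any array, averaging controls 2 and 3, the mean of all probes and a trended robust variance model. Calls over all genes were 31 higher and 38 lower in the main comparison, 0 with no filter, 0 higher and 2 lower with controls 2 and 3 averaged, 60 and 52 with median scaling, 46 and 54 with the strict filter, 403 and 578 with slide as a block, 929 and 1299 with slide as a random block, 15 and 22 with quantile normalization, and from 0 to 18 higher and 0 to 35 lower with 1 array left out. The subunit median stayed below 0 and the assembly factor median above 0 in each alternative run. With quantile normalization the subunit median was -0.13, with 28 subunits below 0. With 1 array left out they ranged from -0.44 to -0.09 and from 0.032 to 0.31, with 23 to 34 subunits below 0 and 5 to 8 assembly factors above 0, and the subunit median minus the assembly factor median ranged from -0.54 to -0.31. Within slide 1 the assembly factor median was 0.41. With normexp background correction it was 0.19 and all 8 factors stayed above 0, but some lay close to 0. Ndufaf5 was at 0.015, Ndufaf2 at 0.024 and Ndufaf3 at 0.041 there, and the other factors ran from 0.18 to 0.31. Some single genes changed sign: with quantile normalization Ndufa4 was at 0.045 and Ndufs7 at 0.0095; without slide 1 Ndufaf2 was at -0.029 and Ndufaf5 at -0.0085; within slide 1 Ndufab1 was at -0.0053 and Ndufs8 at 0.087; within slide 2 Ndufa4 was at 0.054 and Ndufaf2 at -0.24. With 1 array left out, Ndufs7 ranged from -0.58 to 0.18, Ndufaf1 from -0.020 to 0.61, Ndufaf2 from -0.018 to 0.24, Ndufaf4 from -0.13 to 0.52, Ndufaf5 from -0.0066 to 0.52 and Ndufaf8 from -0.065 to 0.99. The causes were not tested. The 5 brightness groups and the fit by probe were chosen after seeing the data. Raw spot and local background medians served for normexp, since no mean signal was used here. The deposited value table was not run as an alternative because it did not follow the scanner values. No paired analysis was possible because the titles share no replicate number between the groups; slide served as a batch, within slides and as a block. Slide 1 arrays, at 3.75 to 4.04 times local background against 25 to 30.6 times on the others, were the dimmest.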
